A study of Mus musculus with 12 samples.

Results

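The 10 genes described here make fatty acids in the cytosol or put double bonds and further carbons into them. They were picked by name, as every row of the deposited table whose gene symbol was Acly, Acss2, Me1, Acaca, Fasn, Elovl6, Scd1, Scd2, Fads1 or Fads2, which gave 10 of 48034 genes. The rule uses names and no measured value, but the 10 genes were chosen with earlier results of these data known. The study asks how an inducible, inhibiting mutant of a transcription factor changes gene expression with and without a salt load. RNA was sequenced from 12 libraries of IMCD3, a mouse cell line of the inner medullary collecting duct, with 3 libraries (A, B and C) in each of 4 groups. The groups were mifepristone plus NaCl, mifepristone, vehicle plus NaCl, and vehicle, where NaCl stands for 100 mM added salt.

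All 4 groups came from 1 subclone, 53a, kept in low glucose DMEM with serum. As known of the study, mifepristone switches on that dominant-negative mutant in this subclone. Cells without the inducible mutant were not analysed here, so an action of mifepristone itself cannot be told apart from that of the mutant. The labels do not tell if libraries A, B and C were grown as separate cultures, so the p-values below reflect the spread among libraries, and this may be technical in part or in whole. In bulk RNA, fewer cells of a kind and less RNA per cell cannot be told apart.

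Fatty acid synthesis starts from citrate that leaves the mitochondrion. ATP citrate lyase (Acly) cuts it into acetyl-CoA, to which acetyl-CoA synthetase (Acss2) adds acetyl-CoA made from acetate, and malic enzyme (Me1) supplies NADPH for the reducing steps. Acetyl-CoA carboxylase (Acaca) makes malonyl-CoA, fatty acid synthase (Fasn) strings it into palmitate, the elongase Elovl6 lengthens palmitate to stearate, and stearoyl-CoA desaturases (Scd1, Scd2) put in a double bond. Fads1 and Fads2 are the desaturases of polyunsaturated fatty acid synthesis. The transcription factors SREBP-1 and SREBP-2 are known to drive many of these genes, and collecting duct cells of the kidney medulla live in salt well above that of plasma.

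RefSeq (GRCm38.p6) gave promoter windows, from 250 bases before to 50 after a gene start, for 7 of the 10 genes (Acly, Acaca, Fasn, Me1, Acss2, Elovl6 and Fads2). Of these, 4 stretches from 120 bases before the start to 10 after it are shown for the genes with the largest salt response (Me1), the opposite mifepristone and salt responses (Acss2), the deepest fall with mifepristone (Elovl6) and no call in any comparison (Fasn). Each is given 5′ to 3′ on the gene's strand. Capitals mark TGACNNNGC (the core of antioxidant response elements) and ATTGG or its complement CCAAT (the inverted CCAAT box). TGACNNNGC was chosen after the values here were seen. The Elovl6 stretch holds neither.
Me1, chr9:86695905-86696034, minus strand: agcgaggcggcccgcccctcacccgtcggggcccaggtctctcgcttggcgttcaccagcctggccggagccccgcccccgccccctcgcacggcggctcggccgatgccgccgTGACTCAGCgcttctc
Acss2, chr2:155517923-155518052, plus strand: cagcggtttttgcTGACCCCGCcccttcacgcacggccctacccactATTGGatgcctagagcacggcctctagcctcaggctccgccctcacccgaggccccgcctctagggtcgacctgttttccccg
Elovl6, chr3:129532266-129532395, plus strand: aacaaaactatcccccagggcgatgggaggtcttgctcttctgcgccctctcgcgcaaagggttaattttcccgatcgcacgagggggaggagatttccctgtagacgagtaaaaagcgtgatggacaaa
Fasn, chr11:120824538-120824667, minus strand: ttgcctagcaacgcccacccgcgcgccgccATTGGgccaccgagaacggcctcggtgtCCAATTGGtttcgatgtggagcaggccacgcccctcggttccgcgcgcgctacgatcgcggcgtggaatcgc

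Over both strands of the 7 genes' windows, TGACNNNGC was found in Me1, at position -6 from the start, and in Acss2, at -107. It lies in 12.4% of all 32851 windows of the table. ATTGG was found for Acly, Acss2, Fasn and Me1, against 37.4% of windows, and in Fasn it lay at -90 and -59, with a CCAAT at -62 that overlaps the match at -59. The Me1 match lay in the window of a start downstream of the one shown. GGGCGG, the GC box, was found for Acly, Acss2, Fads2 and Me1, against 35.7% of windows. The tonicity element core TGGAAA was found in the window of Acaca alone, against 21.4% of windows. That window begins at base 84195188, inside the gene, whose annotated start is at 84129672. TCACNCCAC, a form of the sterol regulatory element, and CACGTG, the palindromic E-box, were found in none of the 7 genes' windows, against 1.24% and 7.15% of windows. These matches describe letters in short windows, and TGGAAA and TGACNNNGC were chosen after the values here were seen.

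Reads recovered from the deposited values summed to between 41940955 and 49270776 per library. Acss2 was the thinnest of the 10 genes, with 327 to 750 reads per library, and Scd2 the deepest, with 92132 to 147292. FPKM are the authors' fragment counts scaled by gene length and library depth, and a ± after a mean is the SD over 3 libraries (n = 3 each). Of 9 principal cell markers 1 exceeded a mean of 1 FPKM in some group (Scnn1a), and Aqp2, the water channel that defines principal cells, averaged 0 to 0.0589 FPKM. All 6 epithelial markers did so, and 0 of 5 adipocyte markers. One marker each did so among 5 fibroblast (Dcn), 5 intercalated cell (Slc26a4), 6 proximal tubule (Lrp2) and 5 immune cell markers (Cd68).

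Several of these lists differed in summed level with mifepristone. The summed fibroblast markers ran from 2.96 to 3.39 FPKM with mifepristone plus NaCl and 5.61 to 6.31 with mifepristone, against 0.240 to 0.314 with vehicle plus NaCl and 0.249 to 0.342 with vehicle. The summed intercalated cell markers ran from 1.54 to 1.64 FPKM with mifepristone plus NaCl and 1.46 to 1.49 with mifepristone, against 0.050 to 0.111 with vehicle plus NaCl and 0.315 to 0.326 with vehicle. The summed immune cell markers ran from 5.28 to 5.81 FPKM with mifepristone plus NaCl and 3.88 to 4.33 with mifepristone, against 2.97 to 3.43 with vehicle plus NaCl and 3.07 to 3.45 with vehicle. Principal cell markers summed to 1.71 to 2.07 FPKM with mifepristone plus NaCl and 2.50 to 2.75 with mifepristone. Against these stood 0.686 to 0.777 with vehicle plus NaCl and 0.774 to 0.955 with vehicle. All of these sums were higher in every mifepristone library than in every vehicle library. Scnn1a made up most of the principal cell sum in all groups, while Scnn1g was lower with mifepristone, with and without NaCl. Dcn made up most of the fibroblast sum with mifepristone, and Cd68 most of the immune cell sum in all groups. Col1a1, Pdgfra and Ptprc of these lists were lower with mifepristone, with and without NaCl. Ptprc averaged 0.045 FPKM with mifepristone plus NaCl and 0.012 with mifepristone, against 0.296 with vehicle plus NaCl and 0.066 with vehicle. The summed proximal tubule markers were lower, at 0.449 to 0.569 FPKM with mifepristone plus NaCl and 0.370 to 0.540 with mifepristone. Against these stood 1.20 to 1.43 with vehicle plus NaCl and 1.16 to 1.49 with vehicle. Lrp2 made up most of that sum in the vehicle groups. Cubn went the other way, at 0.288 FPKM with mifepristone plus NaCl and 0.245 with mifepristone. It averaged 0.156 with vehicle plus NaCl and 0.124 with vehicle. Col1a2, Col3a1, Foxi1, Slc34a1 and Cd3e, which define these cell types, averaged under 0.1 FPKM in all groups. Among epithelial markers Cdh16, a kidney cadherin, averaged 121.2 FPKM with mifepristone plus NaCl and 31.6 with mifepristone, against 676.2 with vehicle plus NaCl and 188.0 with vehicle. Pax8 also averaged lower with mifepristone, with and without NaCl. Epcam, Cdh1, Krt8 and Krt18 averaged higher with mifepristone, with and without NaCl. Krt8 averaged 209.8 FPKM with mifepristone plus NaCl and 286.1 with mifepristone, against 118.4 with vehicle plus NaCl and 171.4 with vehicle. The part of these markers in any result was not tested.

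Deviations of a library from its group's mean followed gene length in most libraries. Their Spearman correlation with exon length, across 13916 genes that are not independent replicates, was -0.51 in mifepristone C, 0.46 in mifepristone A, 0.42 in mifepristone B and -0.44 in vehicle A, and between -0.29 and 0.36 in the other 8 libraries. Within a group of 3 the deviations add up to 0, so libraries of one group are not independent here.

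All 10 genes passed the filter on low values and entered limma, fitted over 14044 genes on log2(FPKM + 0.5), with a call at a Benjamini-Hochberg adjusted p under 0.05. Folds and log2 changes are on that scale, which understates the change of low genes. With mifepristone in cells without NaCl, 2 of the 10 were called higher (Scd2 and Fads1) and 5 lower (Acly, Acss2, Me1, Elovl6 and Scd1), where 28.3% of all tested genes were called higher and 31.5% lower. With mifepristone in cells with NaCl, Me1 was called higher and Acly, Acaca and Elovl6 lower, against 26.8% higher and 31.9% lower over all tested genes. With NaCl in vehicle cells, Me1 and Elovl6 were called higher and Acly, Scd2 and Fads1 lower, against 25.2% and 31.5%. With NaCl in mifepristone cells, Me1 and Acss2 were called higher and Acly, Acaca, Elovl6, Scd2 and Fads1 lower, against 24.5% and 34.2%. The difference between the mifepristone effects with and without NaCl (the interaction) was called positive for Me1 and Acss2 and negative for Acaca, Elovl6, Fads1 and Fads2, against 13.6% and 17.5%.

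The median log2 change of the 10 genes in those 5 comparisons, in the same order, was -0.03, -0.14, 0.01, -0.27 and -0.18, and over all tested genes it was -0.01, -0.03, -0.02, -0.06 and -0.01. With 10 genes and a background this high, these shares and medians describe the group and are not read as a result about it. The comparisons share groups, so they are not independent of each other.

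**Figure D1:**
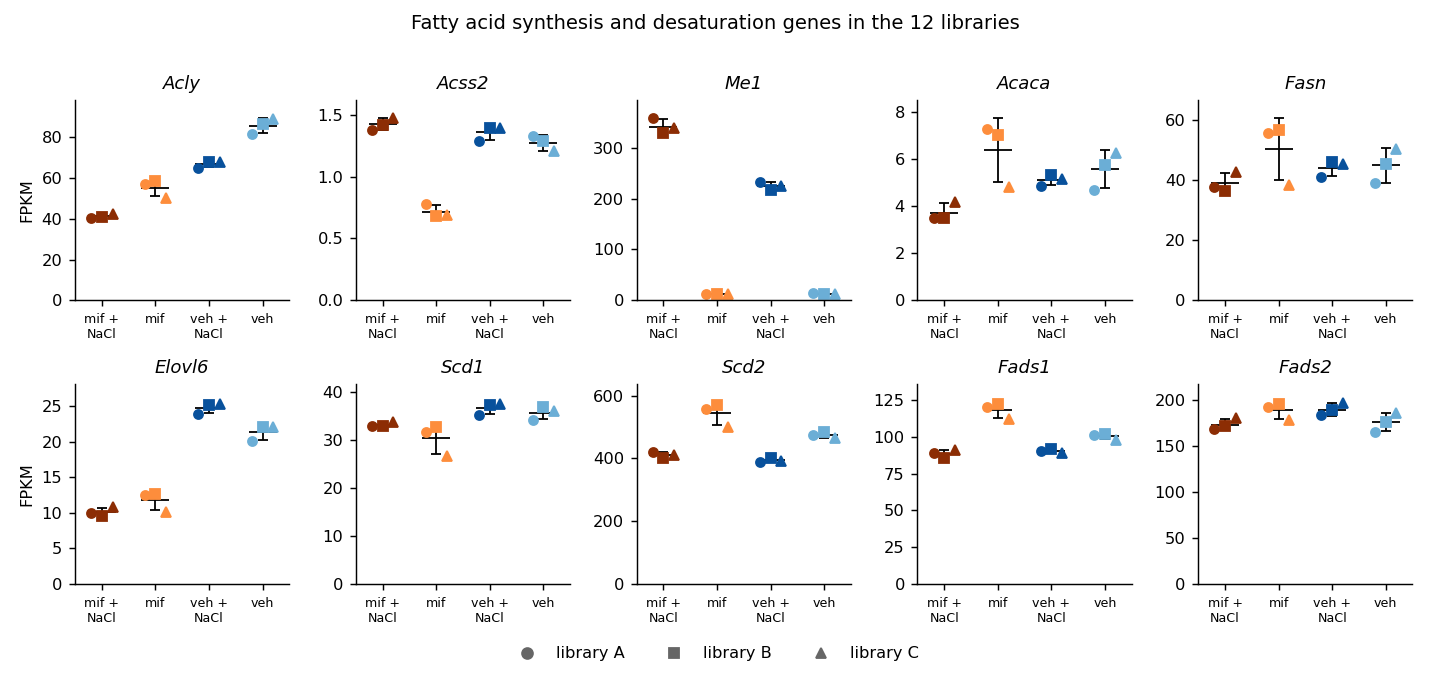
FPKM of each of the 10 genes (y axis, from 0, its own scale in each panel) in the mifepristone plus NaCl, mifepristone, vehicle plus NaCl and vehicle groups (x axis). Each point is 1 library (circle A, square B, triangle C), the long bar the mean and the error bar 1 SD of 3 libraries. Me1 stands at 329.0 to 358.2 and 217.0 to 233.6 FPKM in the salt groups and under 14 FPKM in the others, and the mifepristone library C lies below A and B for Acaca and Fasn.

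Among the enzymes that supply the precursors, Acly was lower with each treatment. Acly (ENSMUSG00000020917, chromosome 11, 100476353 to 100528000 on GRCm38, minus strand) had 40.3, 40.7 and 42.6 FPKM in mifepristone plus NaCl libraries A, B and C and 57.2, 58.4 and 50.3 in mifepristone libraries. Vehicle plus NaCl libraries had 65.0, 68.0 and 68.0 FPKM and vehicle libraries 81.6, 86.6 and 88.7. No library of one group reached the range of another, and the vehicle libraries stood highest. Acly fell with mifepristone by 0.63 (SE 0.0576, limma adjusted p = 2.98e-06) in cells without NaCl and by 0.70 (adjusted p = 1.27e-06) in cells with NaCl, on the log2 scale. It also fell with NaCl, by 0.35 (adjusted p = 0.000374) in vehicle cells and by 0.42 (adjusted p = 8.65e-05) in mifepristone cells. Its interaction was -0.07, with a 95% interval of -0.25 to 0.11 and an adjusted p of 0.554. Acly was the only one of the 10 genes called in the same direction in all 4 treatment comparisons.

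Acss2, which makes acetyl-CoA from acetate in cytosol and nucleus, was low in every library, and was lower in one group than in the other 3. Acss2 (ENSMUSG00000027605, chromosome 2, 155517948 to 155585724, plus strand) had 1.38, 1.42 and 1.47 FPKM with mifepristone plus NaCl and 0.777, 0.681 and 0.689 with mifepristone. It had 1.29, 1.39 and 1.40 FPKM with vehicle plus NaCl and 1.33, 1.29 and 1.21 with vehicle. The mifepristone libraries without NaCl lay apart below all others, and the other 3 groups lay close together. Acss2 fell with mifepristone in cells without NaCl by 0.55 (SE 0.0563, adjusted p = 7.70e-06) and rose with NaCl in mifepristone cells by 0.66 (adjusted p = 1.69e-06). Mifepristone in cells with NaCl gave 0.05 (95% interval -0.08 to 0.17) and NaCl in vehicle cells 0.07 (-0.06 to 0.19), neither called. The interaction was 0.60 (SE 0.0796, adjusted p = 0.000277). With voom on the recovered reads the mifepristone change without NaCl was -0.83, and the authors' deposited table gives -0.826. Acss2 overlaps Ggt7 and Gss on the opposite strand, with mean levels of 0.999 and 2.17 FPKM, and its values are uncertain because strand use in the counting is not given in the sources used here.

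Me1, the cytosolic malic enzyme, had the largest response of the 10 genes, to salt. Me1 (ENSMUSG00000032418, chromosome 9, 86581371 to 86695953, minus strand) had 358.2, 329.0 and 338.2 FPKM with mifepristone plus NaCl, against 11.4, 11.4 and 11.9 with mifepristone. With vehicle plus NaCl it had 233.6, 217.0 and 225.3 FPKM, against 13.7, 13.2 and 12.1 with vehicle. Every salt library lay far above every library without salt, and among salt libraries those with mifepristone lay above those with vehicle. Me1 rose with NaCl 28.4-fold in mifepristone cells (log2 change 4.83, SE 0.0522, adjusted p = 1.48e-13) and 16.7-fold in vehicle cells (log2 change 4.06, adjusted p = 6.01e-13). Its level passed 99.0% of tested genes with mifepristone plus NaCl and 58.5% with mifepristone, and 98.1% with vehicle plus NaCl and 62.5% with vehicle.

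The mifepristone effect on Me1 had opposite signs in the absence and presence of salt. With NaCl, Me1 rose 1.52-fold with mifepristone (log2 change 0.60, adjusted p = 1.87e-06), and without NaCl it fell by 0.16 on the log2 scale (SE 0.0522, adjusted p = 0.0191). The interaction was 0.76 (SE 0.0739, adjusted p = 2.69e-05). The small change without NaCl was no longer called on leaving out mifepristone A (-0.15, adjusted p = 0.0565), mifepristone B (-0.15, 0.0603), vehicle A (-0.13, 0.0760) or vehicle B (-0.15, 0.0643), or with only those 2 groups in the fit (adjusted p = 0.0509). The Me1 window shown above with TGACTCAGC at its start belongs to the upstream one of its 2 RefSeq starts. That motif was chosen after the values here were seen.

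At the committed step, Acaca, which makes malonyl-CoA, was lowest in the mifepristone plus NaCl libraries. Acaca (ENSMUSG00000020532, chromosome 11, 84129672 to 84401651, plus strand) had 3.49, 3.51 and 4.21 FPKM with mifepristone plus NaCl, against 4.88, 5.31 and 5.16 with vehicle plus NaCl. It had 7.30, 7.05 and 4.84 FPKM with mifepristone, against 4.71, 5.76 and 6.29 with vehicle. The mifepristone plus NaCl libraries lay below all others, and the mifepristone and vehicle groups overlapped. Acaca fell with NaCl in mifepristone cells by 0.69 (SE 0.141, adjusted p = 0.00155), while NaCl in vehicle cells gave -0.11 (95% interval -0.42 to 0.20).

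Acaca also fell with mifepristone in cells with NaCl, by 0.41 (adjusted p = 0.0269), and in cells without NaCl the value was 0.17 (95% interval -0.14 to 0.48, adjusted p = 0.325). The fall with NaCl present was not called on leaving out mifepristone plus NaCl A (-0.37, adjusted p = 0.0828) or B (-0.37, 0.0819) or vehicle plus NaCl B (-0.39, 0.0750) or C (-0.40, 0.0650), nor without a filter on low values (0.0554). The interaction of -0.58 (adjusted p = 0.0477) was called only narrowly. It lost the call on leaving out any one of mifepristone plus NaCl A and B, mifepristone A and B, the 3 vehicle plus NaCl libraries and vehicle A and B, with values of -0.61 to -0.47.

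Fasn, the enzyme that builds palmitate, was not called in any of the 5 comparisons. Fasn (ENSMUSG00000025153, chromosome 11, 120805846 to 120824547, minus strand) had 37.6, 36.4 and 42.9 FPKM with mifepristone plus NaCl and 55.7, 56.8 and 38.4 with mifepristone, against 41.0, 45.9 and 45.3 with vehicle plus NaCl and 38.9, 45.5 and 50.4 with vehicle. All 4 groups overlapped one another, and mifepristone C lay among the lowest libraries while A and B were the highest. The log2 values were 0.15 for mifepristone without NaCl (95% interval -0.17 to 0.46), -0.18 with NaCl (-0.49 to 0.14), -0.02 for NaCl in vehicle cells (-0.34 to 0.29) and -0.35 in mifepristone cells (-0.66 to -0.03, adjusted p = 0.0572). In the authors' deposited table the last of these was -0.360 with an adjusted p of 0.0182.

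Vehicle A and mifepristone C lay apart from their groups for Acaca and Fasn. Acaca differed by -21.8% and Fasn by -18.9% in vehicle A from the mean of vehicle B and C, and by -32.6% and -31.8% in mifepristone C from the mean of mifepristone A and B. Acaca has 17074 and Fasn 10947 bases of exon, against a median of 3596 over tested genes. Acaca and Fasn, the longest of the 10 genes, differed most in both libraries, but length did not strictly order the others. The shortest, Me1 with 3848 bases and Fads2 with 3295, differed by 8.05% and -8.44% in vehicle A. In mifepristone C they differed by 4.94% and -7.98%. Acss2, with 10163 bases, differed by 6.53% in vehicle A and by -5.49% in mifepristone C, while Elovl6 with 6431 bases and Scd1 with 4892 differed by -19.6% and -17.1% in mifepristone C. Without mifepristone C, limma called Acaca (0.34, adjusted p = 0.0141) and Fasn (0.33, 0.0148) higher with mifepristone in cells without NaCl, Fasn lower with NaCl in mifepristone cells (-0.53, 0.00105), and the Fasn interaction (-0.51, 0.0115). Without vehicle A, the Fasn value for NaCl in mifepristone cells had an adjusted p of 0.0488. With both left out together, Acaca was at 0.24 (0.0270) and Fasn at 0.23 (0.0328) for mifepristone without NaCl. The part of the length trend in these values was not tested.

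Elovl6, the elongase that turns palmitate into stearate, had the deepest falls with mifepristone of the 10 genes. Elovl6 (ENSMUSG00000041220, chromosome 3, 129532355 to 129638495, plus strand) had 9.99, 9.57 and 10.8 FPKM with mifepristone plus NaCl, against 23.9, 25.2 and 25.4 with vehicle plus NaCl. Without NaCl it had 12.5, 12.7 and 10.1 FPKM with mifepristone, against 20.1, 22.0 and 22.1 with vehicle. All 6 mifepristone libraries lay below all 6 vehicle libraries. Elovl6 fell with mifepristone 2.38-fold in cells with NaCl (log2 change -1.25, SE 0.0791, adjusted p = 1.34e-07) and 1.79-fold in cells without it (log2 change -0.84, adjusted p = 3.73e-06). The difference between these falls, the interaction, was -0.41 (SE 0.112, adjusted p = 0.0173).

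Salt moved Elovl6 less, and in opposite directions in the 2 kinds of cell. Elovl6 rose with NaCl in vehicle cells by 0.21 (adjusted p = 0.0427) and fell with NaCl in mifepristone cells by 0.20 (adjusted p = 0.0465), both narrowly past the threshold. The rise was not called on leaving out mifepristone plus NaCl A, any one of the vehicle plus NaCl libraries or any one of the vehicle libraries, with values of 0.16 to 0.24, nor without a filter on low values (adjusted p = 0.0943). The fall was not called on leaving out mifepristone plus NaCl A or B, mifepristone A or B, any one of the vehicle plus NaCl libraries, or vehicle B or C, with values of -0.20 to -0.15, nor under either rescaling of the libraries, without a filter on low values, or with only those 2 groups in the fit.

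**Figure D2:**
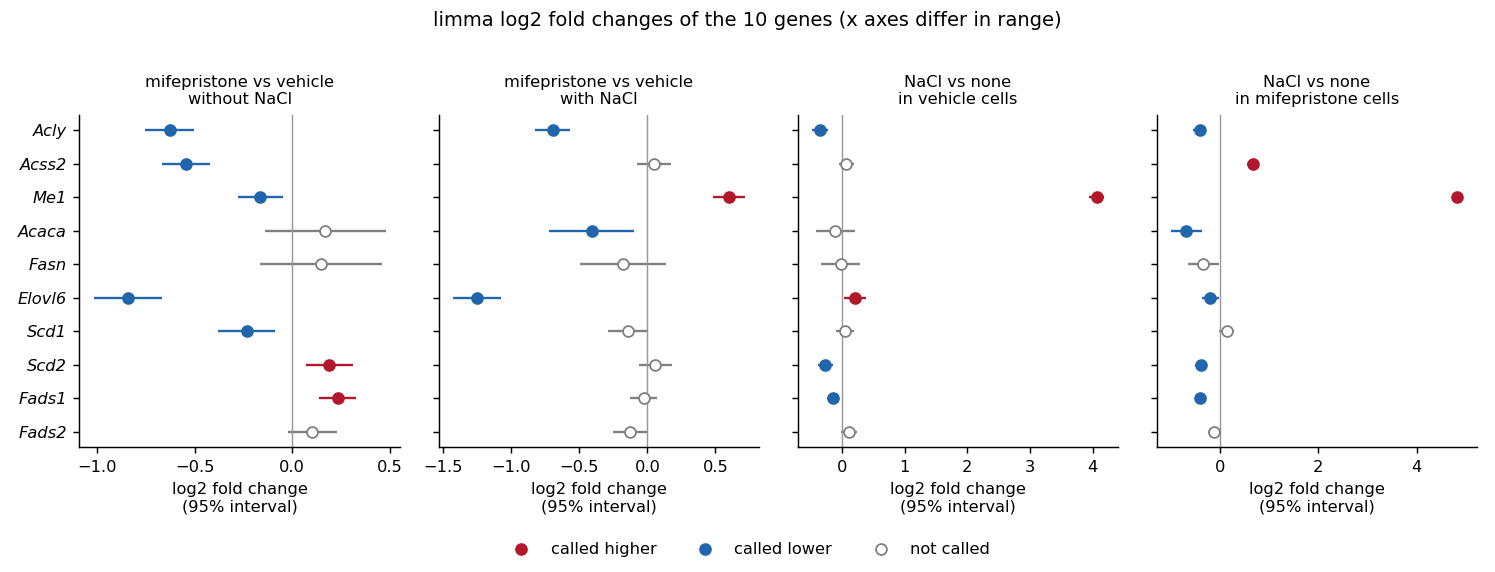
limma log2 fold change on log2(FPKM + 0.5) (x axis, range differs by panel) for each of the 10 genes (rows) in the 4 treatment comparisons (panels). Points are estimates over 3 against 3 libraries, lines 95% intervals, filled red called higher, filled blue called lower and open not called. Elovl6 stands farthest to the left in both mifepristone panels (-0.84 and -1.25), and Me1 farthest to the right in both NaCl panels (4.06 and 4.83).

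The stearoyl-CoA desaturases Scd1 and Scd2, which make oleate and palmitoleate, lie 87590 bases apart on chromosome 19 and were expressed at very different levels. Scd2 (ENSMUSG00000025203, 44293674 to 44306864, plus strand) had 420.2, 402.0 and 412.2 FPKM with mifepristone plus NaCl and 557.3, 571.5 and 501.8 with mifepristone, against 390.1, 402.1 and 392.2 with vehicle plus NaCl and 475.2, 485.8 and 465.0 with vehicle. Scd2 was the highest of the 10 genes in every group, and its libraries without NaCl lay above those with NaCl. Scd1 (ENSMUSG00000037071, 44394455 to 44407879, minus strand) had 32.8, 32.8 and 33.7 FPKM with mifepristone plus NaCl and 31.7, 32.6 and 26.6 with mifepristone, against 35.2, 37.2 and 37.5 with vehicle plus NaCl and 34.1, 36.8 and 35.9 with vehicle. Mifepristone libraries of Scd1 lay below their vehicle counterparts with and without NaCl. Being paralogs, the 2 genes may share reads in part.

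Mifepristone moved Scd1 and Scd2 in opposite directions in cells without NaCl. Scd2 rose by 0.19 (SE 0.0542, adjusted p = 0.0102) and Scd1 fell by 0.23 (SE 0.0658, adjusted p = 0.0101). With only those 2 groups in the fit neither was called (0.0837 for Scd2 and 0.0558 for Scd1). With NaCl present, Scd2 had 0.06 (95% interval -0.06 to 0.18) and Scd1 -0.14 (-0.29 to 0.00, adjusted p = 0.0818), and Scd1 was called there without mifepristone C (adjusted p = 0.00518).

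NaCl lowered Scd2 and was not called for Scd1. Scd2 fell with NaCl by 0.27 (adjusted p = 0.00151) in vehicle cells and by 0.40 (adjusted p = 7.63e-05) in mifepristone cells. Scd1 had 0.04 (95% interval -0.10 to 0.19) in vehicle cells and 0.13 (-0.01 to 0.28) in mifepristone cells, the second of which was called without mifepristone B (0.18, adjusted p = 0.0412). After quantile normalization, which forces all libraries to one distribution, Scd2 with NaCl in vehicle cells was at -0.0037 (adjusted p = 0.981). The Scd2 interaction of -0.13 (adjusted p = 0.216) was called without mifepristone C (-0.19, adjusted p = 0.0147).

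Fads1 and Fads2, whose products insert the double bonds of arachidonic and related fatty acids, are 81141 bases apart on the same chromosome. Fads1 (ENSMUSG00000010663, 10182888 to 10196877, plus strand) had 88.8, 85.7 and 90.9 FPKM with mifepristone plus NaCl and 120.1, 122.4 and 111.7 with mifepristone, against 90.4, 91.6 and 88.7 with vehicle plus NaCl and 101.3, 101.7 and 98.0 with vehicle. The mifepristone libraries without NaCl were the highest and the 2 salt groups overlapped. Fads1 rose with mifepristone in cells without NaCl by 0.23 (SE 0.0435, adjusted p = 0.000773) and had -0.03 (95% interval -0.12 to 0.07) in cells with NaCl. It fell with NaCl by 0.41 (adjusted p = 1.01e-05) in mifepristone cells and by 0.15 (adjusted p = 0.0115) in vehicle cells, and the interaction was -0.26 (adjusted p = 0.00826). After quantile normalization the value for NaCl in vehicle cells was -0.06 (adjusted p = 0.562).

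Fads2 (ENSMUSG00000024665, 10062765 to 10101746, minus strand) had 168.1, 171.3 and 179.7 FPKM with mifepristone plus NaCl and 191.9, 195.5 and 178.2 with mifepristone, against 183.0, 188.5 and 196.2 with vehicle plus NaCl and 165.3, 176.0 and 185.1 with vehicle. Mifepristone and vehicle overlapped without NaCl, and no treatment comparison of Fads2 was called, with log2 values of 0.10 and -0.13 for mifepristone without and with NaCl and 0.11 and -0.12 for NaCl in vehicle and mifepristone cells. After quantile normalization Fads2 was called higher with mifepristone without NaCl (0.32, adjusted p = 0.0226) and with NaCl in vehicle cells (0.27, adjusted p = 0.0458). Mifepristone with NaCl was called lower with only those 2 groups in the fit (adjusted p = 0.0247). Without mifepristone C, 3 of the values were called, at 0.14 (adjusted p = 0.0355) for mifepristone without NaCl, -0.13 (0.0351) for mifepristone with NaCl and -0.16 (0.0219) for NaCl in mifepristone cells. The interaction of -0.23 (SE 0.0792) was called narrowly, at an adjusted p of 0.0458. Leaving out any one of mifepristone plus NaCl A and B, mifepristone A and B, the vehicle plus NaCl libraries and vehicle A and B ended that call, with values of -0.26 to -0.19.

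Ratios of 2 genes within a library do not depend on its depth. The Scd2 to Scd1 ratio of FPKM averaged 12.4 ± 0.318 with mifepristone plus NaCl and 18.0 ± 0.735 with mifepristone, against 10.8 ± 0.309 with vehicle plus NaCl and 13.4 ± 0.518 with vehicle. The Fads1 to Fads2 ratio averaged 0.511 ± 0.0150 with mifepristone plus NaCl and 0.626 ± 0.000671 with mifepristone, against 0.477 ± 0.0221 with vehicle plus NaCl and 0.573 ± 0.0418 with vehicle. Both ratios were higher with mifepristone than with vehicle and lower with NaCl than without, with no overlap between the groups compared.

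The Fasn to Acly ratio averaged 0.946 ± 0.0565 with mifepristone plus NaCl and 0.903 ± 0.121 with mifepristone, against 0.658 ± 0.0233 with vehicle plus NaCl and 0.523 ± 0.0457 with vehicle. The Fasn to Acaca ratio averaged 10.4 ± 0.300 with mifepristone plus NaCl and 7.87 ± 0.224 with mifepristone, against 8.61 ± 0.188 with vehicle plus NaCl and 8.06 ± 0.183 with vehicle. Fasn stood nearer to Acly in the mifepristone groups, and farthest above Acaca with both treatments. Over 16 comparisons (4 ratios in 4 contrasts), the two-sided exact permutation p was 0.1, the smallest that 3 against 3 libraries allow, in all but the Fasn to Acaca ratio for mifepristone without NaCl (0.5) and the Fasn to Acly ratio for NaCl in mifepristone cells (0.8), both with overlapping groups. Adjusted over the 16 comparisons these became 0.114, 0.533 and 0.8, so no ratio could pass a threshold of 0.05 in this design. Mifepristone C and vehicle A stood apart less for Fasn over Acaca (7.94 and 8.26, beside 7.63 and 8.06 in mifepristone A and B and 7.90 and 8.01 in vehicle B and C) than for either gene alone.

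**Figure D3:**
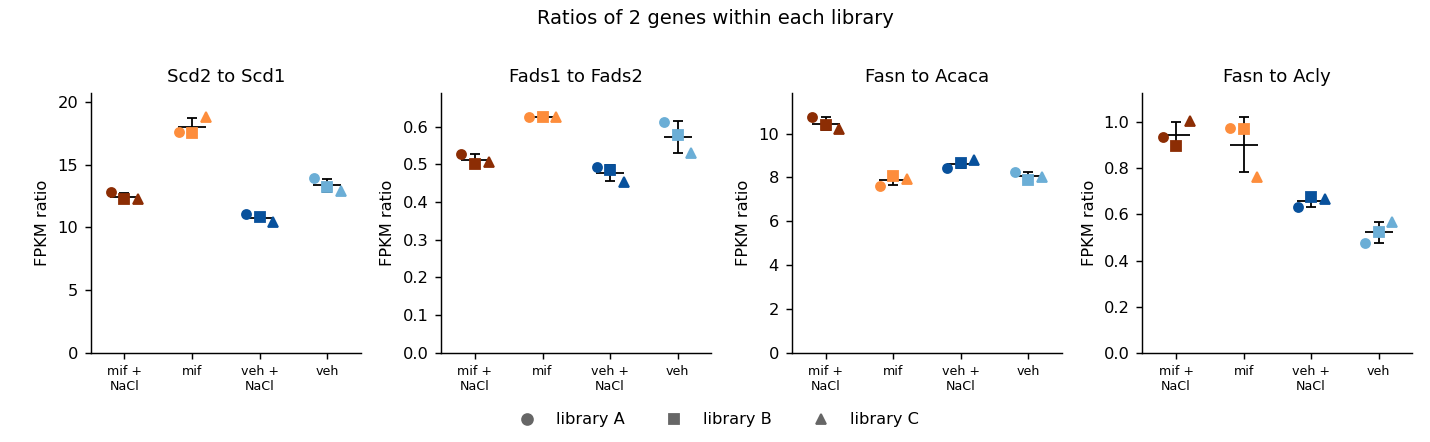
Ratio of the FPKM of 2 genes within each library (y axis, from 0, no unit) for Scd2 to Scd1, Fads1 to Fads2, Fasn to Acaca and Fasn to Acly in the mifepristone plus NaCl, mifepristone, vehicle plus NaCl and vehicle groups (x axis). Points are libraries A, B and C, the long bar the mean and the error bar 1 SD of 3 libraries. The Scd2 to Scd1 ratio is highest in the mifepristone libraries (17.5 to 18.8), and the Fasn to Acly ratio lowest in the vehicle libraries (0.477 to 0.568).

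Ordered by FPKM, the 10 genes kept nearly the same ranks in all groups, with Me1 the exception. Scd2, Fads2, Fads1, Acly, Fasn, Scd1, Elovl6, Me1, Acaca and Acss2 was the order from high to low with mifepristone and with vehicle, and in the salt groups Me1 stood at rank 2, behind Scd2. Neighbours whose libraries overlapped were Acly and Fasn in the mifepristone plus NaCl and mifepristone groups and Elovl6 and Me1 in the mifepristone group. All other neighbours lay apart.

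Over the 12 libraries, the genes whose log2 values were most like those of 3 chosen genes were picked by Pearson correlation, as a description of libraries that share 4 groups. For Scd2 they were Ski (r = 0.987), Msrb3 (0.985) and Nnt (0.983). For Scd1 they were Dab2 (0.968), Mdc1 (0.962) and Senp7 (0.961). For Fasn they were Myo9b (0.975), Uhrf1bp1 (0.974) and Ccar2 (0.974). Among the 10 genes, Scd2 and Fads1 ran together (0.970), as did Acaca and Fasn (0.920), and Fads1 and Acss2 ran oppositely (-0.915). Group means of Ccar2 lay between 23.15 and 24.41 FPKM, those of Uhrf1bp1 between 4.393 and 5.122, and those of Myo9b between 16.82 and 21.59. Library deviations within groups followed gene length in most libraries, and Acaca and Fasn are the longest of the 10 genes. The part of these deviations in the correlations was not tested.

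The regulators of this pathway were followed through a list of 14 genes, of which 10 were tested. Mlxipl, Nr1h3, Thrsp and Pnpla3 stayed under the filter on low values. With mifepristone 5 of the 10 were called higher and 5 lower without NaCl, and 3 higher and 5 lower with NaCl. With NaCl 3 were called higher and 4 lower in vehicle cells, and 2 higher and 7 lower in mifepristone cells. Over all tested genes, 28.3%, 26.8%, 25.2% and 24.5% were called higher in these comparisons, in the same order. The shares called lower were 31.5%, 31.9%, 31.5% and 34.2%.

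Srebf1, which encodes the SREBP-1 factors, averaged 30.5 ± 0.616 FPKM with mifepristone plus NaCl and 39.4 ± 0.986 with mifepristone, against 30.4 ± 0.817 with vehicle plus NaCl and 33.8 ± 0.867 with vehicle. Srebf1 rose with mifepristone without NaCl (0.22, adjusted p = 0.000276), had 0.00 with NaCl present (95% interval -0.07 to 0.08), and fell with NaCl in vehicle cells (-0.15, adjusted p = 0.00347) and in mifepristone cells (-0.36, adjusted p = 4.74e-06). Fads1 and Scd2 had calls of the same signs as Srebf1 in these comparisons, and Acly, Elovl6 and Me1 did not. Srebf2, which encodes SREBP-2, averaged 30.2 ± 1.64 FPKM with mifepristone plus NaCl and 46.0 ± 5.42 with mifepristone, against 60.2 ± 2.44 with vehicle plus NaCl and 65.5 ± 4.68 with vehicle. It fell with mifepristone by 0.51 (adjusted p = 0.000300) without NaCl and by 0.99 (adjusted p = 1.52e-06) with NaCl.

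Insig1, an SREBP target that holds SREBP back in the endoplasmic reticulum, averaged 58.4 ± 1.43 FPKM with mifepristone plus NaCl and 85.3 ± 3.20 with mifepristone, against 139.4 ± 0.689 with vehicle plus NaCl and 180.1 ± 4.32 with vehicle. It fell with mifepristone 2.11-fold (adjusted p = 1.67e-09) without and 2.37-fold (adjusted p = 4.69e-10) with NaCl. Mid1ip1, which helps acetyl-CoA carboxylase to polymerize, averaged 11.8 ± 0.532 FPKM with mifepristone plus NaCl and 18.4 ± 1.33 with mifepristone, against 26.1 ± 0.646 with vehicle plus NaCl and 21.0 ± 1.27 with vehicle. It fell 2.17-fold with mifepristone in cells with NaCl (adjusted p = 2.90e-08), where Acaca fell too, and by 0.19 on the log2 scale without NaCl (adjusted p = 0.0167). Mlxip, a glucose-sensing factor, rose with mifepristone by 0.71 (adjusted p = 0.000202) without NaCl and by 0.35 (adjusted p = 0.0175) with it.

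Scap, the SREBP escort, rose in all 4 comparisons, by 0.23, 0.12, 0.27 and 0.16 (adjusted p = 0.000481, 0.0240, 0.000174 and 0.00500). Insig2, a second retention protein, fell with mifepristone by 0.49 and 0.38 without and with NaCl and rose with NaCl by 0.40 and 0.51 in vehicle and mifepristone cells. The proteases that free SREBP differed, as Mbtps2 fell in all 4 comparisons, by 0.34, 0.49, 0.56 and 0.71, and Mbtps1 rose with mifepristone without NaCl by 0.28 and fell with NaCl in mifepristone cells by 0.24. Nr1h2, a sterol-sensing nuclear receptor, rose with mifepristone by 0.20 and 0.17 and fell with NaCl by 0.20 and 0.22.

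Cholesterol synthesis, the other SREBP-driven pathway, had lower calls by limma for most of its genes. Of 23 genes, 0 were called higher and 21 lower with mifepristone without NaCl, and 0 higher and 21 lower with NaCl, with medians of -1.01 and -0.79. With NaCl, 0 were called higher and 19 lower in vehicle cells, and 3 higher and 20 lower in mifepristone cells, with medians of -0.55 and -0.51. Over all tested genes, 28.3%, 26.8%, 25.2% and 24.5% were called higher in these comparisons, and 31.5%, 31.9%, 31.5% and 34.2% lower. Where 0 genes were called higher, the highest log2 change of the list was -0.10 with mifepristone without NaCl, 0.08 with mifepristone with NaCl and -0.04 with NaCl in vehicle cells. Hmgcs1, which makes HMG-CoA from acetyl-CoA, averaged 40.7 ± 1.94 FPKM with mifepristone plus NaCl and 79.1 ± 1.66 with mifepristone, against 115.0 ± 1.31 with vehicle plus NaCl and 228.1 ± 11.9 with vehicle. Of the 10 fatty acid genes, only Acly fell in all 4 comparisons as Hmgcs1 did. The difference between the 2 lists was not tested, and both were chosen with earlier results of these data known.

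**Figure D4:**
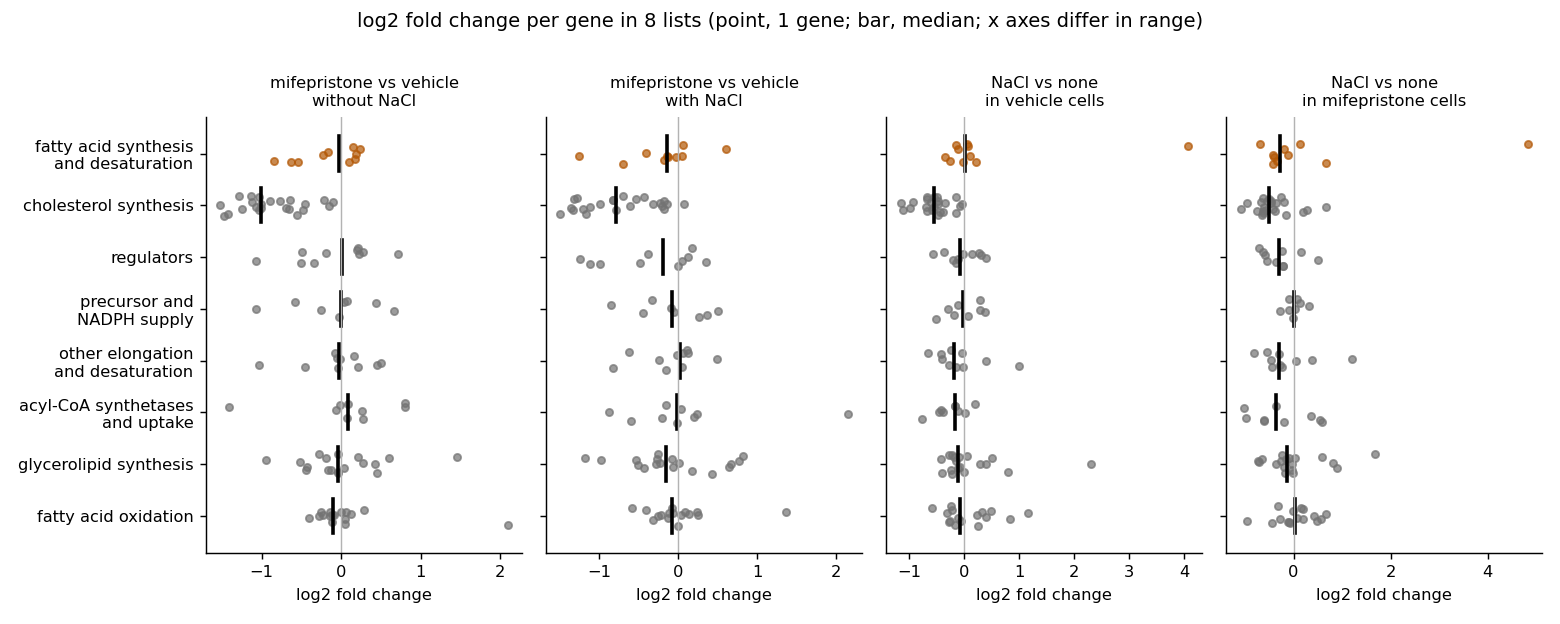
limma log2 fold change (x axis, range differs by panel) of every tested gene in 8 lists (rows) in the 4 treatment comparisons (panels). A point is 1 gene and the black bar the list's median, with the 10 fatty acid genes in orange. Their medians lie between -0.27 and 0.01, and those of cholesterol synthesis between -1.01 and -0.51.

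Among the genes that supply citrate and NADPH beside Acly and Me1, the changes with NaCl were smaller than that of Me1, and several of those with mifepristone were larger. Slc25a1, the mitochondrial citrate exporter, fell with mifepristone by 0.58 (adjusted p = 1.52e-06) without and by 0.45 (adjusted p = 1.32e-05) with NaCl, the direction of Acly, and Cs, citrate synthase, rose by 0.66 and 0.50. Me2, the mitochondrial malic enzyme, rose with NaCl by 0.38 in vehicle and by 0.31 in mifepristone cells. G6pdx, which makes NADPH in the pentose phosphate pathway, rose with NaCl by 0.29 and 0.13, and Pgd rose by 0.29 in vehicle cells. Of 8 tested genes of this list, 2 were called higher and 3 lower with mifepristone without NaCl, 3 and 3 with NaCl, 3 and 3 with NaCl in vehicle cells, and 2 and 1 with NaCl in mifepristone cells. The shares over all tested genes were 28.3% and 31.5%, 26.8% and 31.9%, 25.2% and 31.5%, and 24.5% and 34.2%.

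Aacs, which activates acetoacetate for lipid synthesis, fell with mifepristone by 1.08 without NaCl and 0.85 with NaCl. Elovl7, another elongase of saturated fatty acids, fell with mifepristone by 1.04 (adjusted p = 2.19e-08) without and by 0.83 (adjusted p = 1.34e-07) with NaCl, as Elovl6 did, and rose with NaCl by 0.99 in vehicle and by 1.20 in mifepristone cells. Fads3, the neighbour of Fads1 and Fads2, fell in all 4 comparisons, by 0.46, 0.62, 0.65 and 0.81. Among 10 tested genes of elongation and desaturation outside the 10 described, 3 were called higher and 2 lower with mifepristone without NaCl, 3 and 4 with NaCl, 2 and 6 with NaCl in vehicle cells, and 2 and 6 with NaCl in mifepristone cells. The shares over all tested genes were 28.3% and 31.5%, 26.8% and 31.9%, 25.2% and 31.5%, and 24.5% and 34.2%.

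The authors' deposited table marks genes with a nearby ChIP peak, and 6 of the 10 genes carry the mark (Acly, Me1, Elovl6, Scd2, Fads1 and Fads2), against 28.4% of all tested genes. The marked genes include some called lower with mifepristone without NaCl (Acly, Me1 and Elovl6), some called higher (Scd2 and Fads1) and 1 not called (Fads2). In the authors' deposited table the adjusted p of the mifepristone comparison and of the interaction was 1 for all 10 genes, and the form of that test is not given in the sources used here. For NaCl in mifepristone cells the authors' deposited table gives log2 fold changes of 4.87 for Me1, 0.988 for Acss2 and -0.757 for Acaca.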

How the data were processed

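The 12 libraries were poly(A)-selected (TruSeq), per the labels' protocols. The submitters' processing notes name the mouse build GRCm38 (mm10) and, without their roles, DESeq2 1.12.3, SAMtools 1.0, STAR 2.4.2a and Trimmomatic 0.32. How reads were counted, against which annotation and with which strand setting is not given in the sources used here. The authors deposited FPKM per library, scaled by gene length and depth. The authors' deposited comparison tables hold, per the file headers, a mean signal (normalized counts over the 12 libraries), log2 fold changes, adjusted p-values and a mark of a nearby ChIP peak. Columns headed with the mutant's name were matched to the mifepristone titles by salt and letter and by knowledge of the study, and 0 columns were left without a sample.

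Of the deposited genes, 14044 had 3 or more libraries with FPKM no lower than 1, and these were fitted with limma 3.58.1 (R 4.3.3, robust and trended eBayes) on log2(FPKM + 0.5), using 4 group means and 8 residual degrees of freedom, Benjamini-Hochberg adjustment over all tested genes and calls at an adjusted p under 0.05. The fit was also run on simulated reads with known changes, drawn separately for each gene and without the length trend of these libraries. That run cannot show how the fit behaves under such a trend. The 4 ratios were compared by exact permutation tests. Reads were recovered from FPKM and the authors' mean signal (100% of values whole, within 0.05), and limma voom on these reads was 1 of 23 alternatives. Correlations of same-letter libraries' deviations ran from -0.50 to 0.29. Coordinates and exon lengths are from GENCODE M21, promoters from RefSeq. The 10 genes, the 7 other gene lists, the motifs and the markers were chosen with earlier results of these data known, and TGGAAA and TGACNNNGC after the values here were seen. Named genes are the 10, all regulators, up to 4 called genes by smallest adjusted p per other list and comparison, and 3 most like genes for Fasn, Scd1 and Scd2. Some named genes were dropped for length, and 1 gene and 1 motif are not reported here. Tables and figures used Python 3.11.15, pandas 2.3.3, numpy 2.4.6, scipy 1.17.1 and matplotlib 3.10.9.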

Additional observations from a re-analysis of the deposited data

Results flagged for a closer look

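For 6 of the 10 genes the mifepristone effect differed between cells with and without NaCl by limma's interaction test, over 3 libraries a group. The difference (mifepristone effect with NaCl minus that without) was 0.76 for Me1 and 0.60 for Acss2, and for both the effect was higher with NaCl than without. It was -0.58 for Acaca, -0.41 for Elovl6, -0.26 for Fads1 and -0.23 for Fads2. Of these, Acaca and Fads2 lay just inside the threshold (adjusted p = 0.0477 and 0.0458) and lost the call in 12 and 13 of 22 alternatives, while Me1, Acss2, Elovl6 and Fads1 kept theirs in all alternatives run for them. The 6 differences were found where 13.6% of tested genes had a positive and 17.5% a negative one.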

How the results depend on the processing

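Under 23 alternatives, the 10 genes' log2 changes kept their side of the threshold in 1037 cases, lost a call in 62, gained one in 36, and no called change turned sign. The 1037 include uncalled changes that turned sign, as for Fasn with NaCl in vehicle cells (-0.12 to 0.07). In the order mifepristone without NaCl, mifepristone with NaCl, NaCl in vehicle cells, NaCl in mifepristone cells and interaction, the genes called were 2, 1, 2, 2 and 2 higher and 5, 3, 3, 5 and 4 lower. No filter gave 1 higher for NaCl in vehicle cells and 2 lower for the interaction, and so did the replicate block (letters A, B and C, which the labels do not say mark shared cultures). A mean FPKM of at least 5, which removes Acss2, gave 1 higher for NaCl in mifepristone cells and 1 for the interaction. Median-ratio scaling gave 2 lower for the interaction, and quantile normalization 1 lower for NaCl in vehicle cells. Library weights, whose estimation stopped before reaching its tolerance, gave 6 lower for mifepristone with NaCl and 4 higher for NaCl in vehicle cells. Over all tested genes, weights gave 5584 lower and 5287 higher there, against 4474 and 3541 without weights. Fits of only the groups compared gave 1 higher and 3 lower for mifepristone without NaCl and 5 lower with NaCl. Over all tested genes, such fits gave 3355 higher, 3667 lower and 5158 lower there, against 3970, 4421 and 4474 with all groups. Without vehicle A and mifepristone C together, there were 4 higher without NaCl and 6 lower with NaCl. Leaving out 1 library gave 2 to 5 higher for mifepristone without NaCl, 2 to 5 lower for mifepristone with NaCl, 1 to 2 higher for NaCl in vehicle cells and 2 to 6 lower for the interaction. Causes were not tested beyond what each setting's construction shows. Over all genes, no filter gave 6088 higher for mifepristone with NaCl (3766 with the filter) and 5876 for NaCl in mifepristone cells (3440). A mean of at least 5 gave 2310 and 2026 there and 985 positive interactions (1915). Weights gave 3377 positive and 3779 negative interactions (1915 and 2459), and leaving out mifepristone C 3148 positive. Depth limits Acss2 most, at 327 reads in its lowest library.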

Other observations

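The lists that handle fatty acids after their synthesis held a few large changes among small ones. In fatty acid oxidation, Cpt1a, which starts the entry of fatty acids into mitochondria, rose with mifepristone by 2.10 on the log2 scale (limma adjusted p = 2.75e-10) without NaCl and by 1.36 (adjusted p = 6.59e-09) with NaCl, and averaged 33.3 ± 1.37 FPKM with mifepristone plus NaCl and 65.3 ± 5.89 with mifepristone, against 12.6 ± 0.311 with vehicle plus NaCl and 14.8 ± 0.465 with vehicle (SD, n = 3 each). Of its 16 tested genes, 3 were called higher and 7 lower with mifepristone without NaCl, 3 and 6 with NaCl, 7 and 7 with NaCl in vehicle cells, and 6 and 4 with NaCl in mifepristone cells. The shares over all tested genes were 28.3% and 31.5%, 26.8% and 31.9%, 25.2% and 31.5%, and 24.5% and 34.2%. Among synthetases and uptake genes, Fabp5, a fatty acid binding protein, averaged 25.5 ± 0.476 FPKM with mifepristone plus NaCl and 16.8 ± 1.20 with mifepristone, against 5.36 ± 0.163 with vehicle plus NaCl and 9.42 ± 0.457 with vehicle. It rose with NaCl in mifepristone cells by 0.59 and fell with NaCl in vehicle cells by 0.76, and its interaction was 1.35 (adjusted p = 4.51e-07). Acsl1, a long-chain acyl-CoA synthetase, fell with mifepristone by 1.42 without and by 0.87 with NaCl. Of 9 tested genes of that list, 4 were called higher and 1 lower with mifepristone without NaCl, 3 and 4 with NaCl, 1 and 6 with NaCl in vehicle cells, and 3 and 5 with NaCl in mifepristone cells.

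In glycerolipid synthesis, Lpin2, a phosphatidate phosphatase, averaged 21.4 ± 0.806 FPKM with mifepristone plus NaCl and 6.33 ± 0.485 with mifepristone, against 11.8 ± 0.422 with vehicle plus NaCl and 1.98 ± 0.0572 with vehicle, with no overlap between any of the groups. Lpin2 rose with NaCl by 2.31 in vehicle cells (adjusted p = 6.40e-11) and by 1.68 in mifepristone cells (adjusted p = 6.22e-10), which among the genes of these lists was second to Me1. Agpat3, an acyltransferase, fell with mifepristone by 1.18 with NaCl and by 0.43 without it. Of 18 tested genes, 6 were called higher and 7 lower with mifepristone without NaCl, 6 and 9 with NaCl, 5 and 8 with NaCl in vehicle cells, and 4 and 8 with NaCl in mifepristone cells. In all 3 lists these counts stand beside the same shares over all tested genes. These were 28.3% and 31.5%, 26.8% and 31.9%, 25.2% and 31.5%, and 24.5% and 34.2%, in the same order.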
